A study of Mus musculus with 4 samples.

Results

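The interleukin 1 (IL-1) family was followed in PyMT-A cells, a mammary tumour cell line of FVB/NJ mice. The 9 genes were taken by symbol: Il1a, Il1b, Il1rn, Il18, Il33, Il1r1, Il1r2, Il1rap and Il1rl1. All 9 were found among the 33677 rows of the deposited count table, 8 passed the filter on low counts, and Il1r2 was at 0 in every library. Jagged1 cells had been infected with PMSCV-Jagged1 virus, which carries a ligand of the Notch receptors, and the vector cells with PMSCV-puro virus, which confers puromycin resistance. Each line gave 2 libraries of poly(A)-selected RNA from cells grown in DMEM with serum. The labels do not say whether either line is a clone or a pool, or whether its libraries came from separate cultures. The p-values therefore reflect how far these libraries differ among themselves, and that spread may be technical.

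IL-1 alpha and IL-1 beta are inflammatory cytokines that act through the receptor IL1R1 together with its accessory chain IL1RAP. The antagonist encoded by Il1rn occupies IL1R1 without signalling, and IL1R2 is a decoy that binds IL-1 but has no signalling domain. IL-33 acts through ST2, the product of Il1rl1, with the same accessory chain, while IL-18 has receptor chains of its own. IL-1 beta and IL-18 are cut by caspase-1 before they act, whereas IL-1 alpha and IL-33 are active when released from damaged cells; epithelial cells commonly store them.

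Jag1, the transduced gene, had 275 and 324 CPM (counts scaled to library size with TMM factors) in Jagged1 cells, against 10.5 and 9.12 CPM in vector cells, with a log2 fold change of 4.93 and an SE of 0.20 (edgeR, adjusted p = 0.0111). Total counts lay between 12136227 and 20835208 per library, and the floor of 3 counts corresponded to 0.145 to 0.244 CPM, which covers counting error only. Of 9 epithelial markers 8 were tested, with summed levels of 5914 and 4905 CPM in Jagged1 cells, against 6740 and 5523 CPM in vector cells. The pan-leukocyte gene Ptprc had at most 1 count in any library. Single genes typical of other cell types differed between libraries, and the source of these reads was not tested. The macrophage gene Lyz2 had 0 and 89 counts in Jagged1 cells, against 0 and 71 counts in vector cells, and the collagen gene Col1a2 had 0 and 280 counts against 0 and 0. The first principal component, with 51.6% of the variance, placed Jagged1 1 (-25.9) and vector 1 (-31.1) apart from Jagged1 2 (39.98) and vector 2 (17.1), so the spread within a line is wide for many genes.

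The receptor gene Il1rl1 showed the largest difference between the lines among the 9 genes, and no member passed the adjusted threshold. Il1rl1 had 48 and 74 counts in Jagged1 cells, against 5 and 4 counts in vector cells. These counts correspond to 2.32 and 5.34 CPM in Jagged1 cells, with exact 95% counting intervals of 1.71 to 3.08 and 4.20 to 6.71 CPM, against 0.331 and 0.326 CPM in vector cells, with intervals of 0.107 to 0.771 and 0.0887 to 0.834 CPM. The gene passed the low-count filter through the Jagged1 libraries alone, which fixed that each Jagged1 library was higher than each vector library. The counting intervals of the lines did not touch, but they cover counting error only. The mean level was 3.83 ± 2.14 CPM in Jagged1 cells and 0.328 ± 0.00341 CPM in vector cells (SD, n = 2 each), 11.7-fold apart, with a log2 fold change of 3.50 ± 0.63 (SE). The edgeR p was 0.00205 before adjustment and 0.879 after adjustment over 13299 genes. Jag1 itself was the 1 gene called in that fit, 0.00752% of those tested, and 0 of 8 members were called; 1 member had an unadjusted p under 0.05, a level reached by 3.96% of all tested genes. DESeq2 called 1 member, Il1rl1 (adjusted p = 0.0227), where it called 0.353% of genes. Without a filter on low counts edgeR also called Il1rl1 (adjusted p = 6.17e-05), where 0.686% of 24653 genes were called, and limma-voom called 0 members, where 0.00752% of genes were called. With the replicate number as a block edgeR called 0 members, where 0.128% of genes were called, and with a minimum mean of 5 CPM 0 of the 3 members tested, where 0.00962% were called.

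Among the 13299 tested genes, the log2 fold change of Il1rl1 ranked 8 from the top and its unadjusted p ranked 31. At its vector level in all libraries the gene would not have been tested, so these ranks are not independent of the filter. With 1 library left out, the log2 fold change lay between 2.79 (without Jagged1 2) and 4.01 (without Jagged1 1). In these fits 0 members were called, where 0.015% and 0.0376% of genes were; with the low-count filter repeated, Il1rl1 was called without Jagged1 1 (adjusted p = 0.000992), where 1.38% of 13957 genes were called. In bulk RNA, a change in the share of cells that make a transcript and a change in RNA per cell cannot be told apart. Mast cells and fibroblasts are among the other known sources of Il1rl1. Of 7 mast cell markers 5 were in the table, with summed levels of 0.436 and 0.794 CPM in Jagged1 cells, against 0.132 and 0.163 CPM in vector cells; Kit had 7 and 4 counts in Jagged1 cells, against 1 and 2 in vector cells, and Gata2 had 2 and 6 counts against 1 and 0. Both were higher in the Jagged1 libraries, as Il1rl1 was, but on counts too low to be tested. That order held in 13.9% of all tested genes. Fcer1a had at most 1 count, and Cpa3 and Ms4a2 were at 0 in every library. All 6 fibroblast markers were in the table, with summed levels of 10.1 and 55.7 CPM in Jagged1 cells, against 4.43 and 7.003 CPM in vector cells, and Lum was at 0 throughout. Within that list Dcn had 6 and 23 counts in Jagged1 cells, against 0 and 0 in vector cells. Pdgfra had 8.03 and 6.72 CPM in Jagged1 cells, against 3.37 and 4.97 CPM in vector cells, and so was also higher in both Jagged1 libraries. Col1a1 had 36 and 376 counts in Jagged1 cells, against 16 and 24 counts in vector cells, and Thy1 had at most 1 count. The 6 endothelial markers had summed levels of 1.16 and 7.15 CPM in Jagged1 cells, against 0.992 and 3.42 CPM in vector cells. The 4 T and NK cell markers in the table were at 0 in every library. The part of any of these cells in the Il1rl1 difference was not tested.

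Il1rl1 lies on the plus strand of mouse chromosome 1 (GRCm38), at chr1:40429570-40465415 in GENCODE M21, which lists 5 transcripts for it, and RefSeq gives it a distal and a proximal start. Transcripts of this gene encode either membrane-bound ST2 or a soluble decoy, and counts per gene separate neither these forms nor the starts. The 250 bases before each start are shown because Il1rl1 is the member that differed most and either start could have produced the reads. Capitals mark TGGGAA on either strand, the core sequence bound by RBPJ, the DNA-binding factor of Notch signalling.
Il1rl1, distal start, chr1:40429320-40429569, plus strand: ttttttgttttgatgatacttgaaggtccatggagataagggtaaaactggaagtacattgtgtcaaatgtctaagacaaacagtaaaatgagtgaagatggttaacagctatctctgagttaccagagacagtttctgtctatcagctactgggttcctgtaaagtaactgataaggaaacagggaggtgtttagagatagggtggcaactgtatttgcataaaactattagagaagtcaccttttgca
Il1rl1, proximal start, chr1:40439379-40439628, plus strand: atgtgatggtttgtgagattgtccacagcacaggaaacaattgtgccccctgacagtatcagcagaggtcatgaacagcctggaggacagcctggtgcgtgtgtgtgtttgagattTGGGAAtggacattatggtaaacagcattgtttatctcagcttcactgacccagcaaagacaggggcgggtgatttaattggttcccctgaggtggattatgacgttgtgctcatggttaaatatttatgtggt
The distal window holds no such letters and the proximal window holds 1 match, 134 bases before the start. The same letters occur in 21.6% of 32851 RefSeq promoter windows of this length, so a match is common and is given as a description.

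Il1r1, the signalling receptor for IL-1, had 4.26 and 3.18 CPM in Jagged1 cells, against 2.38 and 1.22 CPM in vector cells. No vector library reached either Jagged1 library, on 88 and 44 counts against 36 and 15 counts. The log2 fold change was 1.04 ± 0.47 (SE; adjusted p = 0.9999, edgeR), and it lay between 0.64 and 1.62 with 1 library left out. Il1rap, the accessory chain shared by the IL-1 and IL-33 receptors, had 155 and 182 CPM in Jagged1 cells, against 150 and 142 CPM in vector cells. Its libraries did not overlap between the lines either, but the difference was small (log2 fold change 0.21 ± 0.16, SE; adjusted p = 0.9999, edgeR). Il1r2, the decoy receptor, had no count in any library. That allows a level of up to 0.145 and 0.217 CPM in Jagged1 cells and up to 0.198 and 0.244 CPM in vector cells. Il1rl1 could be tested only because its Jagged1 libraries were high. Among the other 7 tested members the Jagged1 libraries were the 2 highest in 3, Il1rn, Il1r1 and Il1rap, and the 2 lowest in 0; over all tested genes these shares were 13.9% and 15.1%.

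**Figure D1:**
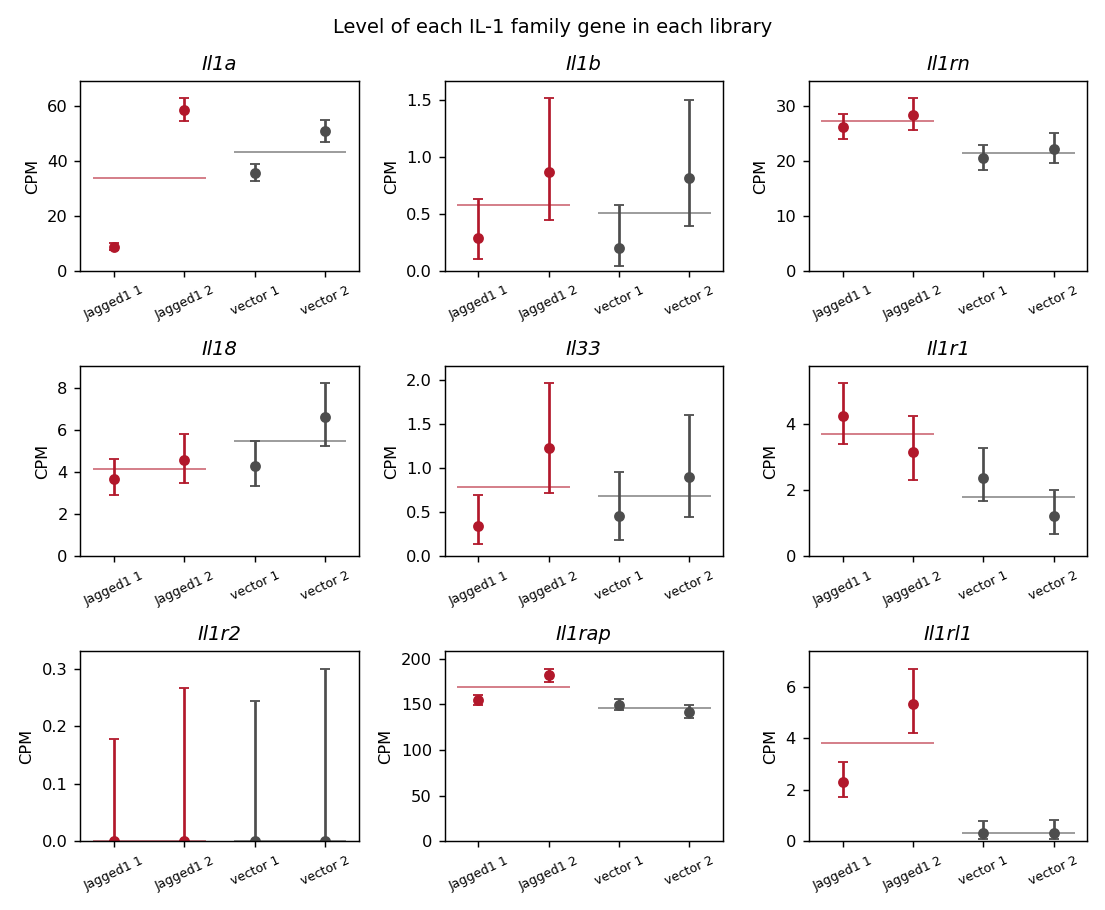
Each panel plots the CPM of 1 gene in the 4 libraries, Jagged1 libraries in red and vector libraries in grey; bars are exact 95% Poisson counting intervals and lines are means of 2 libraries. Il1rl1 stands at 2.32 and 5.34 CPM in Jagged1 cells, against 0.331 and 0.326 CPM in vector cells, whereas the 2 Jagged1 libraries for Il1a stand at 8.90 and 58.8 CPM, on either side of the vector libraries.

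The genes of the ligands gave no common direction. Il1a had 184 and 814 counts in Jagged1 cells, against 541 and 625 counts in vector cells, or 8.90 and 58.8 CPM against 35.8 and 50.9 CPM. The Jagged1 libraries were thus the lowest and the highest of the 4. They differed from each other by 6.60-fold, while the vector libraries differed by 1.42-fold. The log2 fold change between the lines was -0.37 ± 0.80 (SE; adjusted p = 0.9999, edgeR). It was 0.46 without Jagged1 1 and -2.28 without Jagged1 2, so its sign rests on which Jagged1 library is used. With the low-count filter repeated on the 3 remaining libraries, Il1a passed the threshold without Jagged1 2 (adjusted p = 0.0162, edgeR, where 0.352% of 13930 genes were called). That fit compared Jagged1 1 alone with the vector libraries and assumed that this library varies like the others. By the spread of its log2 CPM over the 4 libraries, Il1a ranked 204 of 13299 tested genes.

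Il1a is a gene of 1 annotated transcript on the minus strand of chromosome 2, at chr2:129299610-129309972. The noncoding gene Gm14023 on the other strand covers 222 bases (11.2%) of its exons, and reads there could not be assigned without strand information. The 250 bases before its start are shown because no other member varied as widely between replicate libraries. Capitals mark, on either strand, TGGGAA and the letters TGANTCA, which AP-1 factors bind.
Il1a, chr2:129309973-129310222, minus strand: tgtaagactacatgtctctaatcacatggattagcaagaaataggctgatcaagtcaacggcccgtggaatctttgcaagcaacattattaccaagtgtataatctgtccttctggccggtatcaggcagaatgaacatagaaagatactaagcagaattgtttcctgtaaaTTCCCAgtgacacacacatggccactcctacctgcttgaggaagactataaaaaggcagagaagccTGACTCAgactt
TGGGAA stands in reverse 78 bases before the start and TGANTCA 12 bases before it. TGANTCA occurs in 6.75% of the promoter windows. A consensus for NF-kB, searched on both strands, does not occur here; 2.82% of windows hold it. Of the 14 member windows, NF-kB letters stand in 1, before a start of Il1rn, AP-1 letters in 2 and TGGGAA in 9, among which 2 windows of Il1rn overlap and share a match.

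Il1rn, the antagonist gene, differed little between replicate libraries. It had 26.2 and 28.5 CPM in Jagged1 cells, against 20.6 and 22.3 CPM in vector cells. Both Jagged1 libraries were higher, by 0.35 ± 0.17 on the log2 scale (SE; adjusted p = 0.9999, edgeR), a value that stayed between 0.29 and 0.43 with 1 library left out. For every read of Il1a, Il1rn gave 2.95 and 0.485 reads in Jagged1 cells, against 0.577 and 0.438 reads in vector cells. The ratio stood apart in Jagged1 1 alone, the library in which Il1a was low. The log2 ratio differed between the lines by 1.25 on average, and by -0.05 without Jagged1 1 and 2.55 without Jagged1 2; an exact permutation test of 2 libraries against 2 cannot go below p = 0.333, so none was run.

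Il1b, the gene of IL-1 beta, was close to the floor of detection, with 6 and 12 counts in Jagged1 cells, against 3 and 10 counts in vector cells. Il33, the gene of the ST2 ligand, had 7 and 17 counts in Jagged1 cells, against 7 and 11 counts in vector cells. For both genes the libraries numbered 2 were higher in each line and the lines overlapped. Their log2 fold changes were 0.18 ± 0.92 for Il1b and 0.17 ± 0.81 for Il33 (SE; adjusted p = 0.9999 for both, edgeR), a difference not detectable at this depth. The sign of each turned when vector 1 (-0.53 and -0.23) or Jagged1 2 (-0.74 and -0.97) was left out. In CPM, most myeloid markers were also higher in number 2 of each line, some of them on 3 counts or fewer. For S100a8 and S100a9 this held within the Jagged1 libraries only. Lyz2 and Adgre1 were detected only in the libraries numbered 2, Adgre1 with 0 and 16 counts in Jagged1 cells, against 0 and 6 counts in vector cells. Csf1r, the receptor of a macrophage growth factor, had 32 and 23 counts in Jagged1 cells, against 10 and 16 counts in vector cells. S100a8, a calprotectin subunit, had 35 and 462 counts in Jagged1 cells, against 296 and 129 counts in vector cells, and its partner S100a9 had 5 and 89 counts against 43 and 9 counts. Over the 12 myeloid markers the summed level was 176 and 438 CPM in Jagged1 cells, against 232 and 250 CPM in vector cells, most of it from Cd14, the coreceptor for bacterial lipopolysaccharide, with 173 and 386 CPM against 208 and 228 CPM. The part of such cells in the Il1b counts was not tested. Il18 had 3.68 and 4.55 CPM in Jagged1 cells, against 4.30 and 6.60 CPM in vector cells. The lines overlapped in Il18, and its log2 fold change was -0.40 ± 0.37 (SE; adjusted p = 0.9999, edgeR), nearest to 0 at -0.07 without vector 2.

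**Figure D2:**
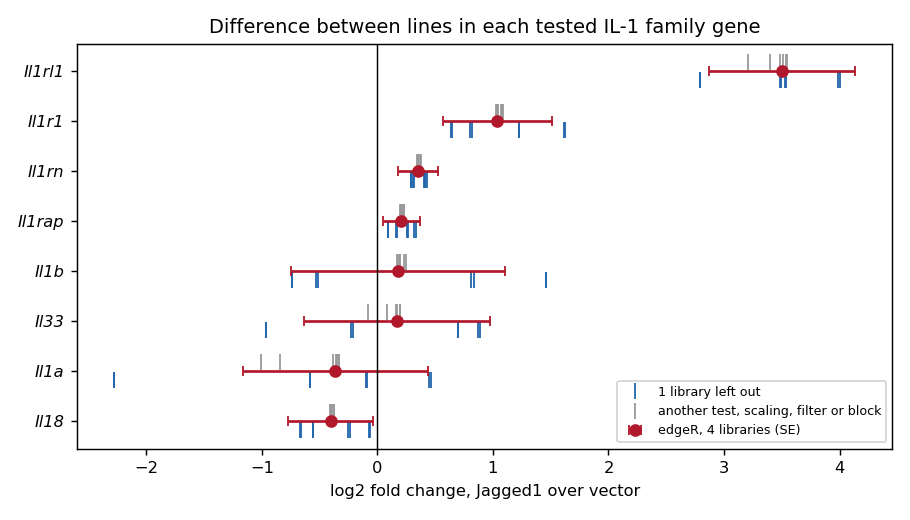
The horizontal axis is the log2 fold change of Jagged1 over vector for the 8 tested genes; red points with bars are the edgeR estimates with SE, blue ticks leave out 1 library, with and without repeating the filter, and grey ticks use another test, scaling, filter or block. Il1rl1 stays between 2.79 and 4.01 in all of them, while the ticks of Il1a run from -2.28 to 0.46.

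Divided by exon length, Il1a and Il1rap had the highest mean levels of the family in both lines, but the Jagged1 mean of Il1a rests on Jagged1 2. Il1a stood at 4.51 and 29.8 CPM per kilobase of GENCODE M21 exon in Jagged1 cells, against 18.1 and 25.8 CPM per kilobase in vector cells. Il1rap followed with 14.8 ± 1.67 CPM per kilobase in Jagged1 cells and 12.8 ± 0.466 in vector cells (SD, n = 2 each), and in Jagged1 cells its libraries lay inside the range of Il1a. In Jagged1 1 the level of Il1a (4.51) was below that of Il1rn (4.74). Il1rn stood at 4.95 ± 0.293 CPM per kilobase in Jagged1 cells and 3.88 ± 0.215 in vector cells. Il18 stood at 3.99 ± 0.598 CPM per kilobase in Jagged1 cells and 5.28 ± 1.58 in vector cells. By library values alone, Il1rn was above Il18 in the Jagged1 libraries and below it in the vector libraries, without overlap in either line. Il18 rested on 76 and 63 counts in Jagged1 cells, against 65 and 81 counts in vector cells. Counting error was not included in this order, so a switch between the lines is not established. The remaining genes stayed under 1 CPM per kilobase. Il1r1 stood at 0.584 ± 0.120 CPM per kilobase in Jagged1 cells and 0.283 ± 0.129 in vector cells, Il1b at 0.303 ± 0.214 and 0.266 ± 0.228, and Il33 at 0.271 ± 0.218 and 0.235 ± 0.106. Il1rl1 stood at 0.556 ± 0.310 CPM per kilobase in Jagged1 cells and 0.0476 ± 0.000495 in vector cells. In Jagged1 cells the libraries of Il1r1, Il1rl1 and Il1b each overlapped with those of the next gene in the order, Il1rl1, Il1b and Il33. In vector cells Il1rl1 lay below each of the others except Il1r2. These values depend on exon lengths that count every annotated transcript, and the annotation release of the deposited counts is not given in the sources used here.

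**Figure D3:**
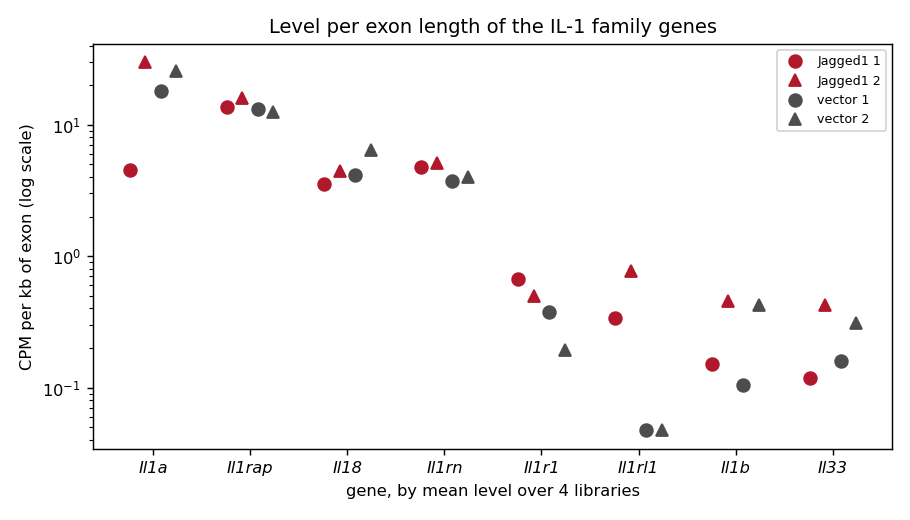
Points are CPM per kilobase of exon on a log axis for each of 4 libraries, genes ordered by their mean; Il1r2, at 0 throughout, is left out. Il1rl1 overlaps with Il1r1 in Jagged1 cells (0.337 and 0.775) and is the lowest gene shown in vector cells (0.0479 and 0.0472).

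Il1r2, Il1r1, Il1rl2, Il1rl1, Il18r1 and Il18rap lie side by side on the plus strand within 477.6 kilobases of chromosome 1, and their values did not share a direction. Il18r1, the ligand-binding chain of the IL-18 receptor, starts 136 bases after the end of Il1rl1, at chr1:40465552-40500854. It had 0.194 and 3.39 CPM in Jagged1 cells, against 5.75 and 13.8 CPM in vector cells. Both Jagged1 libraries were thus lower in the gene next to the one that was higher. The log2 fold change of Il18r1 was -2.50 ± 1.13 (SE; adjusted p = 0.9999, edgeR), and single libraries moved it to -1.50 (without Jagged1 1), -1.72 (without vector 2) and -5.60 (without Jagged1 2; adjusted p = 0.0498 with the filter repeated). Its partner chain Il18rap had 16.3 and 13.4 CPM in Jagged1 cells, against 22.1 and 18.6 CPM in vector cells (log2 fold change -0.45 ± 0.21, SE; adjusted p = 0.9999, edgeR). Il1rl2, the IL-36 receptor gene, had 13.6 and 15.8 CPM in Jagged1 cells, against 12.6 and 10.5 CPM in vector cells. Transcripts that run from one of these genes into the next on the same strand would be counted partly in both.

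**Figure D4:**
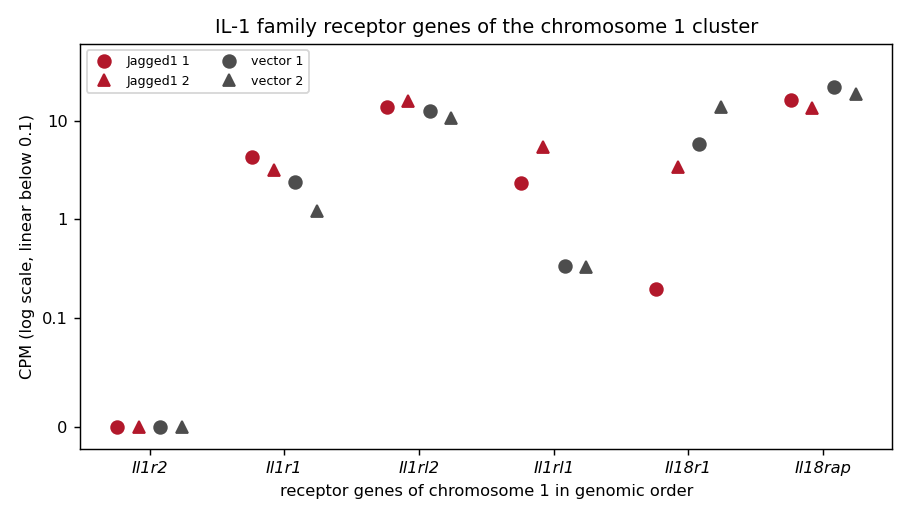
Points are the CPM of each library, on a log axis that is linear below 0.1, for the 6 receptor genes in their order along chromosome 1; red marks Jagged1 libraries, grey vector libraries, circles number 1 and triangles number 2. Il1rl1 is higher and its neighbour Il18r1 lower in both Jagged1 libraries.

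Other ligands, receptors and binding proteins of the family were counted under 12 of 16 listed symbols, since the table uses the older Il1f names, and 8 were tested. Of these 0 rose and 0 fell past the adjusted threshold, 3 had positive and 5 negative values, and the median log2 fold change was -0.13, against -0.003 over all tested genes. The gene of IL-36 gamma, Il1f9, had 0.484 and 10.9 CPM in Jagged1 cells, against 4.10 and 3.50 CPM in vector cells. As with Il1a, the Jagged1 libraries stood on either side of the vector libraries; the log2 fold change was 0.56 ± 1.19 (SE; adjusted p = 0.9999, edgeR) and -2.95 without Jagged1 2, and limma-voom and the block also gave negative values (-1.005 and -0.35). Il1f5, which encodes the IL-36 receptor antagonist, had 4.40 and 11.99 CPM in Jagged1 cells, against 3.70 and 6.60 CPM in vector cells, and its log2 fold change of 0.67 ± 0.57 turned to -0.22 without Jagged1 2.

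The machinery that matures and releases these cytokines was incomplete in the counts. Of 19 listed genes 11 were tested, with 0 past the threshold in either direction, 4 positive and 7 negative values and a median log2 fold change of -0.05. The inflammasome sensor genes Nlrp1a, Nlrc4 and Mefv were at 0 in every library and Nlrp3 had at most 1 count. Aim2, another sensor gene, had 4 and 2 counts in Jagged1 cells, against 0 and 9 counts in vector cells. The adaptor gene Pycard had 5 and 3 counts in Jagged1 cells, against 0 and 2 counts in vector cells. Casp1, the protease that cuts IL-1 beta and IL-18, was present, with 24.1 and 27.2 CPM in Jagged1 cells, against 17.5 and 18.6 CPM in vector cells. Both Jagged1 libraries were higher for Casp1 (log2 fold change 0.50 ± 0.18, SE; adjusted p = 0.9999, edgeR). The largest other values were -0.75 ± 0.45 for Gsdmd, the pore protein gasdermin D, 0.41 ± 0.19 for the channel gene Panx1 and -0.21 ± 0.19 for Ninj1, which ruptures the membrane of dying cells (SE, log2 fold change).

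Signalling genes below the receptors were close to equal in the lines. Of 20 listed genes 18 were tested, 9 with positive and 9 with negative values, a median log2 fold change of -0.004 and 0 past the threshold in either direction. Myd88, the adaptor of IL-1 receptors, had 36.6 and 43.3 CPM in Jagged1 cells, against 47.9 and 48.2 CPM in vector cells (log2 fold change -0.27 ± 0.16, SE; adjusted p = 0.9999, edgeR). The largest value was 0.39 ± 0.51 for Irak3, a kinase-like inhibitor of the pathway, which stood at -0.22 without Jagged1 2. Rela, an NF-kB subunit, stood at -0.17 ± 0.16 and Tab1, a partner of the kinase TAK1, at 0.15 ± 0.17.

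Among genes that IL-1 is known to induce, Jagged1 1 was mostly the lowest library. Of 20 listed genes 18 were tested, with 8 positive and 10 negative values, a median log2 fold change of -0.07 and 0 past the threshold in either direction; 4 had an unadjusted p under 0.05, as did 3.96% of all tested genes, and all 4 (Cxcl2, Ccl2, Lif and Ptgs2) were lower in Jagged1 cells. In 16 of these 18 genes Jagged1 1 was the lowest of the 4 libraries, against 25.3% of all tested genes. In 10 of them Jagged1 1 was the lowest and Jagged1 2 the highest library, the pattern of Il1a, against 10.9% of all tested genes. The median of the list was 0.42 without Jagged1 1 and -1.04 without Jagged1 2. Matrix metalloproteinase gene Mmp13 had 1.40 and 19.9 CPM in Jagged1 cells, against 3.24 and 4.97 CPM in vector cells. Its log2 fold change was 1.36 ± 1.11 (SE; adjusted p = 0.9999, edgeR) and -1.54 without Jagged1 2. Mmp3 had 2.52 and 28.1 CPM in Jagged1 cells, against 7.34 and 6.03 CPM in vector cells, with a log2 fold change of 1.18 ± 1.00 that turned to -1.41 without Jagged1 2. Without Jagged1 1 and with the filter repeated both were called, at 2.28 for Mmp13 (adjusted p = 0.000431) and 2.06 for Mmp3 (adjusted p = 0.000143), and Jagged1 2 was the 1 library in which both were high. Some markers of other cells, though not all, were high in the same library. Col1a1 had 1.74 and 27.2 CPM in Jagged1 cells, against 1.06 and 1.95 CPM in vector cells. Col1a2 had its 280 counts in Jagged1 2 alone. S100a8 had 1.69 and 33.4 CPM in Jagged1 cells, against 19.6 and 10.5 CPM in vector cells, lowest in Jagged1 1 and highest in Jagged1 2. Pdgfra was highest in Jagged1 1, at 8.03 CPM, against 6.72 CPM in Jagged1 2. Cd68 was highest in vector 2, at 2.61 CPM, against 1.59 CPM in Jagged1 2, and Lum was at 0 in every library. The part of other cells in the values of the response genes was not tested.

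Some response genes had both Jagged1 libraries on the lower side. This held for 5 of the 18, against 15.1% of all tested genes, and 1 gene was on the higher side in both, against 13.9%. The neutrophil chemokine gene Cxcl2 had 0.774 and 1.59 CPM in Jagged1 cells, against 5.49 and 4.48 CPM in vector cells (log2 fold change -2.10 ± 0.48, SE; adjusted p = 0.914, edgeR). Ptgs2, which encodes cyclooxygenase 2, had 131 and 137 CPM in Jagged1 cells, against 236 and 252 CPM in vector cells. Its log2 fold change was -0.86 ± 0.15 (SE; adjusted p = 0.721, edgeR), and DESeq2 called it (adjusted p = 0.0043). The cytokine gene Lif had 207 and 216 CPM in Jagged1 cells, against 322 and 302 CPM in vector cells (log2 fold change -0.56 ± 0.15, SE; adjusted p = 0.976, edgeR). The monocyte chemokine gene Ccl2 had 10.2 and 13.5 CPM in Jagged1 cells, against 23.7 and 16.9 CPM in vector cells (log2 fold change -0.78 ± 0.26, SE; adjusted p = 0.9999, edgeR). The Jagged1 libraries were the lower ones in all of these genes, and Jagged1 1 was the lowest. Ccl20, which attracts cells with the receptor CCR6, had 5.76 and 23.0 CPM in Jagged1 cells, against 25.6 and 37.3 CPM in vector cells. Its log2 fold change was -1.15 ± 0.63 (SE; adjusted p = 0.9999, edgeR), and it was -0.43 without Jagged1 1 and -2.45 without Jagged1 2. Single libraries thus set much of the size of the value for Ccl20, and of its call: without Jagged1 2 and with the filter repeated, its adjusted p was 0.0162.

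**Figure D5:**
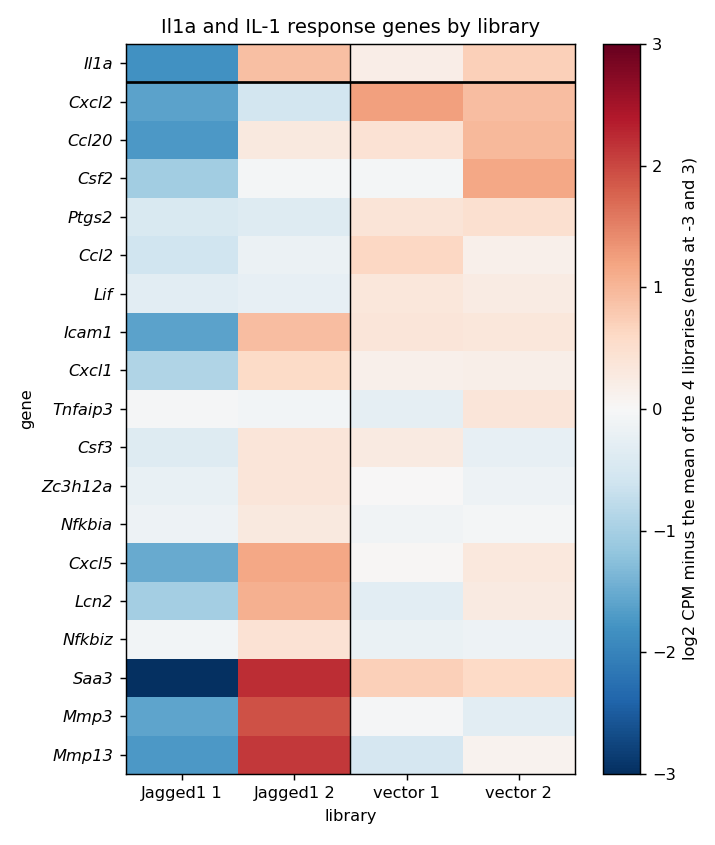
Colours are log2 CPM minus the mean of the 4 libraries for Il1a (top row) and the 18 tested IL-1 response genes, ordered by their log2 fold change; columns are libraries, Jagged1 left of vector. Jagged1 1 is the lowest library in 16 of the 18 genes, as it is for Il1a.

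Genes whose levels followed a member most closely were found by centring log2 CPM on the mean of the 4 libraries and taking the root mean square difference. With 4 libraries many genes come close by this measure. Nearest to Il1a was Pcyox1l, at a distance of 0.0443 on the log2 scale, with 0.678 and 5.13 CPM in Jagged1 cells, against 2.84 and 4.32 CPM in vector cells. Next to it stood the clone-named gene RP24-180B11.8 (0.132) and Zfp750, a zinc finger gene of the epidermis (0.133). Nearest to Il1rl1 were Rassf9 (0.463), Galnt18 (0.467) and Arhgef6 (0.492), at greater distances than for Il1a, Il1b, Il33 and Il1r1, the other members compared in this way. Rassf9 had 2.56 and 4.19 CPM in Jagged1 cells, against 0.331 and 0.733 CPM in vector cells. The nearest genes were Nim1k (0.116), Nmnat2 (0.123) and Grasp (0.123) for Il1r1, RP24-143K11.2 (0.0538), Zfp229 (0.0733) and RP23-301L9.3 (0.0867) for Il1b, and Celf5 (0.043), Cyp4f17 (0.0547) and Mical2 (0.0598) for Il33.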

How the data were processed

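RNA of 2 Jagged1 and 2 vector libraries was measured. The authors deposited whole-number counts of reads for each gene symbol and library. STAR 2.6.0c, featureCounts 1.6.2 and the mm10 (GRCm38) build are named per the submitters' processing notes, with neither an annotation release nor a strand setting. Of 33677 rows, 9024 were at 0 throughout. Within lines, counts differed by more than sampling noise (chi-square per degree of freedom 56.7 for Jagged1 and 34.7 for vector), so each library was 1 replicate.

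From these counts, filterByExpr of edgeR 4.0.16 (minimum count 10; R 4.3.3) kept 13299 genes. These were scaled with TMM factors and tested with the quasi-likelihood F test (robust, legacy), with Benjamini-Hochberg adjustment over all of them and a threshold of 0.05. Each SE was obtained from the log2 fold change and its F statistic. The procedure was tested on simulated data with changes placed in well-counted genes only. That does not cover genes with counts as low as those of Il1rl1, Il1b or Il33. Alternatives were DESeq2 1.42.0, limma-voom (limma 3.58.1), other scalings and filters, the replicate number as a block, and each library left out. Genes named from each pathway list are those past the threshold and the 4 with the largest absolute log2 fold change; nearest genes are given for members spanning more than 1 in log2 CPM (prior count 2). Single marker genes, the low inflammasome genes, Il1rl2, Ptgs2, Lif and Ccl2 were named after their values were seen. Members and lists were chosen with earlier results of these data known. Intervals and floors cover counting error only. Promoter sequences are from RefSeq (GRCm38.p6; 9 of 9 members matched).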

Additional observations from a re-analysis of the deposited data

How the results depend on the processing

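DESeq2 called 47 genes, among them 1 member, Il1rl1, and 1 response gene, Ptgs2. Without the filter on low counts 169 were called, among them 1 member (Il1rl1) and 2 response genes (Ptgs2 and Cxcl2). The replicate number as a block gave 17 calls and 0 members; Il1rl1 then stood at 3.40 (adjusted p = 0.0753). The labels do not say that equal numbers were handled together, and deviations of Jagged1 1 and vector 1 correlated across genes (r = 0.425). With limma-voom Il33 stood at -0.085. With a minimum mean of 5 CPM 3 members remained testable, Il1rl1 not among them. With 1 library left out, called genes numbered 0 to 5, or 0 to 193 with the filter repeated, a setting chosen after seeing the data. Without vector 1 or vector 2 Jag1 was not called (log2 fold change 4.80 to 5.06 over all such fits). Members called numbered 0 to 1 (Il1rl1 at 3.99 without Jagged1 1, adjusted p = 0.000992, and Il1a at -2.28 without Jagged1 2, both with the filter repeated), response genes 0 to 2, and other family genes 0 to 1. Over these fits Il1a lay between -2.28 and 0.46, Il1b between -0.74 and 1.46 and Il33 between -0.97 and 0.89. The cause was not tested. Il1rn, Il1r1, Il1rap and Il18 kept their direction under every alternative in which they were tested. Il1b, Il33 and Il1rl1 each had 10 or more counts in 2 of the 4 libraries, which limits what depth can show for them.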
